A study of Mus musculus with 50 samples.

Results

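The 9 genes described here encode the cohesin ring, its loader and regulators, and CTCF. They are Smc1a, Smc3, Rad21, Stag1, Stag2, Nipbl, Pds5a, Pds5b and Ctcf, chosen by gene name from 24391 genes counted by RNA-seq of poly(A) RNA, and each passed the filter on low counts. Of these genes, Smc1a and Stag2 lie on the X chromosome and 7 are autosomal. The RNA came from mouse cells of the hybrid background CAST/Ei x 129/Sv/Jae, in which some reads can be given to the 129 or to the CAST copy of a gene. The mutation, RepB, is loss of Repeat B of Xist, the long non-coding RNA that coats and silences the inactive X chromosome. Differentiated ES cells had the genotypes RepB+/-, RepB-/- and wild type, with 2 libraries each. Freed of feeders, they had floated as embryoid bodies for 4 days and then grown attached for another 10 days. Mouse embryonic fibroblasts (MEF), cultured in ordinary fibroblast medium, were RepB or wild type, with 1 library each. The labels used here do not say whether a genotype is 1 clone, which allele RepB+/- cells carry, or whether replicate libraries came from separate cultures. The p-values of the fits therefore cover only the spread between these libraries, and that spread is estimated with the help of other genes.

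Cohesin is a ring built from the ATPases Smc1a and Smc3, joined by the kleisin Rad21 and bound by Stag1 or Stag2. Nipbl loads it and promotes loop extrusion, and Pds5a and Pds5b bind the ring and take part in both its protection and its release. CTCF is a zinc-finger protein that binds DNA in an oriented way and halts extruding cohesin, which sets the edges of many chromatin loops and domains. On the inactive X most domains are weakened, and a female cell normally reads most X-linked genes from a single chromosome.

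The libraries held 8000722 to 28045645 reads assigned to genes, of which 11730 to 45784 fell on the 9 genes. Xist stood at 771 to 1101 CPM (counts scaled by library size) in the 4 RepB ES libraries, against 868 and 879 CPM in wild-type ES cells, and 97.2% and 97.8% of its allelic reads were 129 in RepB+/-, 87.2% and 89.2% in RepB-/-, and 98.6% and 98.9% in wild type. A count over the whole gene does not check the loss of Repeat B. Replicate libraries of each ES genotype differed beyond sampling noise. The labelled ES cells were a mixture: each of 5 pluripotency and 5 cardiac muscle markers was detected in all 6 ES libraries. The summed pluripotency level was 308 to 412 CPM in RepB+/- and 273 to 297 CPM in RepB-/-, against 104 to 129.6 CPM in wild type, and 5 of 5 markers rose in each. The summed cardiac level was 216 to 232 CPM in RepB+/- and 175 to 179 CPM in RepB-/-, against 448 to 489.9 CPM in wild type, and 5 of 5 fell in RepB+/- and 4 of 5 in RepB-/-. Endoderm and yolk sac markers summed to 554 to 645 CPM in RepB+/- and 457 to 523 CPM in RepB-/-, against 228 to 229 CPM in wild type, and 4 of 5 and 3 of 5 rose. Of 4 blood markers tested, 2 rose in RepB+/- and 3 in RepB-/-, with sums of 131 to 174 CPM and 143 to 185 CPM, against 106 to 109 CPM in wild type. Of 5 neural markers, 2 rose and 2 fell in each mutant. Of 5 endothelial markers, 1 rose and 1 fell in RepB+/-, and 0 rose and 2 fell in RepB-/-. Of 5 markers of cycling cells, 1 rose and 0 fell in each mutant. Beside these counts, 9.12% of all genes tested rose and 6.84% fell in RepB+/-, and 7.27% rose and 5.49% fell in RepB-/-. In MEF, 3 of 5 pluripotency markers were at 0 in each library, and 5 fibroblast markers summed to 36479 CPM in RepB and 43052 CPM in wild type. Of these fibroblast markers, 1 was at 0 in RepB MEF, while all 5 had reads in wild-type MEF. The ES libraries also held these fibroblast markers at high levels. They summed to 15285 and 29420 CPM in RepB+/- and 18115 and 21121 CPM in RepB-/-, against 19030 and 24073 CPM in wild-type ES cells. Of these 5 markers, 1 rose and 0 fell in each mutant.

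In differentiated ES cells, both X-linked cohesin genes rose in both RepB genotypes, by 1.32 to 1.50-fold, and 0 of the 7 autosomal genes were called. The calls, made with edgeR's quasi-likelihood test at an adjusted p of 0.05 over 15149 genes, were 2 of 9 genes up and 0 down in RepB+/- and in RepB-/-. Over all genes tested, 9.12% rose and 6.84% fell in RepB+/-, and 7.27% rose and 5.49% fell in RepB-/-. The 9 genes had a median log2 fold change of -0.059 in RepB+/- and -0.10 in RepB-/-, beside medians of 0.02 and 0.01 over all genes. X-linked genes as a whole were shifted upwards: 188 of 562 rose and 25 fell in RepB+/-, with a median of 0.37, and 177 rose and 29 fell in RepB-/-, with a median of 0.36. Ranked by fold change from the highest, Smc1a stood at place 187 in RepB+/- and 195 in RepB-/- among the 562 X-linked genes, and Stag2 at places 271 and 193.

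Smc1a, the X-linked ATPase of the ring, is the gene on which the allele data bear most directly, and Smc3 is its autosomal partner. The RefSeq (GRCm38.p6) promoter windows at hand, of 250 bases before to 50 after the start, covered 6 of the 9 genes. They held no entry for Rad21, Stag2 and Nipbl. The Smc1a and Smc3 windows are shown side by side because the first gene rose in both RepB genotypes and the second was not called in either. Capitals mark matches, on either strand, to 5 motifs searched: the GC box GGGCGG, the CCAAT box, the ETS core CGGAAG, the E-box CACGTG and the YY1 motif AANATGGC.
Smc1a: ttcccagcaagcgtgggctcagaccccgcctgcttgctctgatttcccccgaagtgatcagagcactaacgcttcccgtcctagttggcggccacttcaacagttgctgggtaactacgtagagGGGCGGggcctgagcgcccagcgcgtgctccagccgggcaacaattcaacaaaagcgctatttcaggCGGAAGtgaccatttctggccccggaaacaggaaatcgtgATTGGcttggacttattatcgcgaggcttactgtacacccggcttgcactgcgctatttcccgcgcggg
Smc3: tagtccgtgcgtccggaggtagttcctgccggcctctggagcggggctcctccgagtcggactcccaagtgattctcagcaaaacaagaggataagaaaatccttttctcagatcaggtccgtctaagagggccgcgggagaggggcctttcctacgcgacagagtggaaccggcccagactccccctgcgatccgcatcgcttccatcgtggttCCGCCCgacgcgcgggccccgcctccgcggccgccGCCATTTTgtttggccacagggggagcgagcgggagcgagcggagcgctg
The Smc1a window lies at chrX:152016178-152016477, plus strand, and held 1 GC box, 1 CCAAT box and 1 ETS core, with 23 CpG dinucleotides, more than 78.5% of the 32851 windows in the table. The Smc3 window lies at chr19:53600146-53600445, plus strand, and held 1 GC box and 1 YY1 motif, with 32 CpG dinucleotides, more than 90.5% of windows. No marked motif overlaps another in these windows. Matches to the GC box occur in 35.7% of all windows, to CCAAT in 37.4%, to the ETS core in 16.9% and to the YY1 motif in 6.05%. The E-box, found in 7.15% of windows, had no match in either. The count tables use the older build mm9, in which the first listed Smc1a exon is at chrX:148450971-148451183 and that of Stag2 at chrX:39502589-39502862.

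Smc1a stood at 221.8 and 213.1 CPM in the RepB+/- libraries and at 211.9 and 208.0 CPM in RepB-/-, against 143.4 and 147.9 CPM in wild type. Each RepB library lay above each wild-type library, a separation that 29.3% of all genes showed upwards in RepB+/- and 31.1% in RepB-/-. By edgeR the log2 fold change was 0.59 for RepB+/- (SE 0.11, adjusted p = 0.00175) and, for RepB-/-, 0.53 (SE 0.10, adjusted p = 0.00359). The Smc1a call in RepB+/- held without each library in turn, with adjusted p from 0.00196 to 0.0407. The RepB-/- call depended on both wild-type libraries: with replicate 1 left out the log2 fold change was 0.50 (adjusted p = 0.0665), and with replicate 2 left out it was 0.56 (adjusted p = 0.0501).

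Smc3 showed no such separation in RepB+/-, with 187.9 and 177.8 CPM there and 184.8 and 174.0 CPM in RepB-/-, against 199.6 and 186.1 CPM in wild type. The log2 fold changes of Smc3 were -0.07 (95% interval -0.29 to 0.16) and -0.10 (-0.33 to 0.12). Rad21, the kleisin that is cut at anaphase, had 307.8 and 312.3 CPM in RepB+/- and 295.7 and 298.9 CPM in RepB-/-, against 338.0 and 312.8 CPM in wild type. Its RepB libraries lay just below the lower wild-type library, a separation not seen with total-count scaling, and its log2 fold changes of -0.059 and -0.13 had adjusted p of 0.757 and 0.499 (edgeR).

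Stag2, the X-linked STAG subunit, stood at 180.3 and 141.2 CPM in RepB+/- and at 178.5 and 177.7 CPM in RepB-/-, against 126.2 and 120.5 CPM in wild type. The RepB+/- libraries were far apart, and the lower of them was still above both wild-type libraries. The RepB+/- libraries gave a log2 fold change of 0.40 (SE 0.12, adjusted p = 0.0337), and the RepB-/- libraries one of 0.53 (SE 0.12, adjusted p = 0.00799), by edgeR. With wild-type replicate 1 left out, the 2 values were 0.42 and 0.56 (adjusted p = 0.136 and 0.0589), and with wild-type replicate 2 left out they were 0.37 and 0.51 (adjusted p = 0.229 and 0.104), so neither call held. With RepB+/- replicate 1 left out, the RepB+/- value was 0.21 (adjusted p = 0.321). So the 2 genes called became 0 in RepB-/- without either wild-type library, and in RepB+/- became 1, Smc1a, without any of those 3 libraries.

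Stag1, the autosomal alternative to Stag2 in the ring, had 73.9 and 61.3 CPM in RepB+/- and 64.5 and 63.6 CPM in RepB-/-, against 57.1 and 52.3 CPM in wild type. Its RepB libraries too lay above both wild-type libraries, but the gene was not called. By edgeR, the log2 fold change was 0.32 in RepB+/- (95% interval 0.08 to 0.57, adjusted p = 0.0663), while RepB-/- gave 0.23 (-0.01 to 0.47, adjusted p = 0.203). The RepB+/- value of Stag1 ran from 0.17 without RepB+/- replicate 1 (adjusted p = 0.456) to 0.43 without RepB+/- replicate 2 (adjusted p = 0.0236), and with the other libraries left out in turn it was not called.

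The loader gene Nipbl had 179.6 and 175.9 CPM in RepB+/- and 161.9 and 207.6 CPM in RepB-/-, against 195.7 and 206.6 CPM in wild type, and the RepB-/- libraries spanned the wild-type range. Pds5a had 139.7 and 122.4 CPM in RepB+/- and 121.7 and 132.1 CPM in RepB-/-, against 141.8 and 141.1 CPM in wild type. Pds5b had 122.3 and 117.4 CPM in RepB+/- and 114.0 and 123.2 CPM in RepB-/-, against 139.3 and 133.2 CPM in wild type. Both Pds5 genes lay below wild type in each RepB library, a position that 29.4% of all genes took in RepB+/- and 28.4% in RepB-/-, and neither was called. With libraries scaled by total counts, Pds5b in RepB-/- kept this position, while Pds5a in both mutants and Pds5b in RepB+/- overlapped wild type. The log2 fold change of Pds5a was -0.10 in RepB+/- and -0.15 in RepB-/-, and that of Pds5b -0.17 in RepB+/- and -0.20 in RepB-/-, and 1 of the 4 intervals reached -0.41. Ctcf had 128.7 and 124.9 CPM in RepB+/- and 117.3 and 129.7 CPM in RepB-/-, against 120.7 and 114.0 CPM in wild type. Its log2 fold changes were 0.12 (95% interval -0.10 to 0.34) and 0.08 (-0.14 to 0.30), and its RepB-/- libraries overlapped wild type. In bulk RNA, a change in the share of cells of a type and a change in RNA per cell cannot be told apart. The part of the shifts in pluripotency, cardiac, endoderm, blood and the other cell type markers in these differences was not tested.

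**Figure D1:**
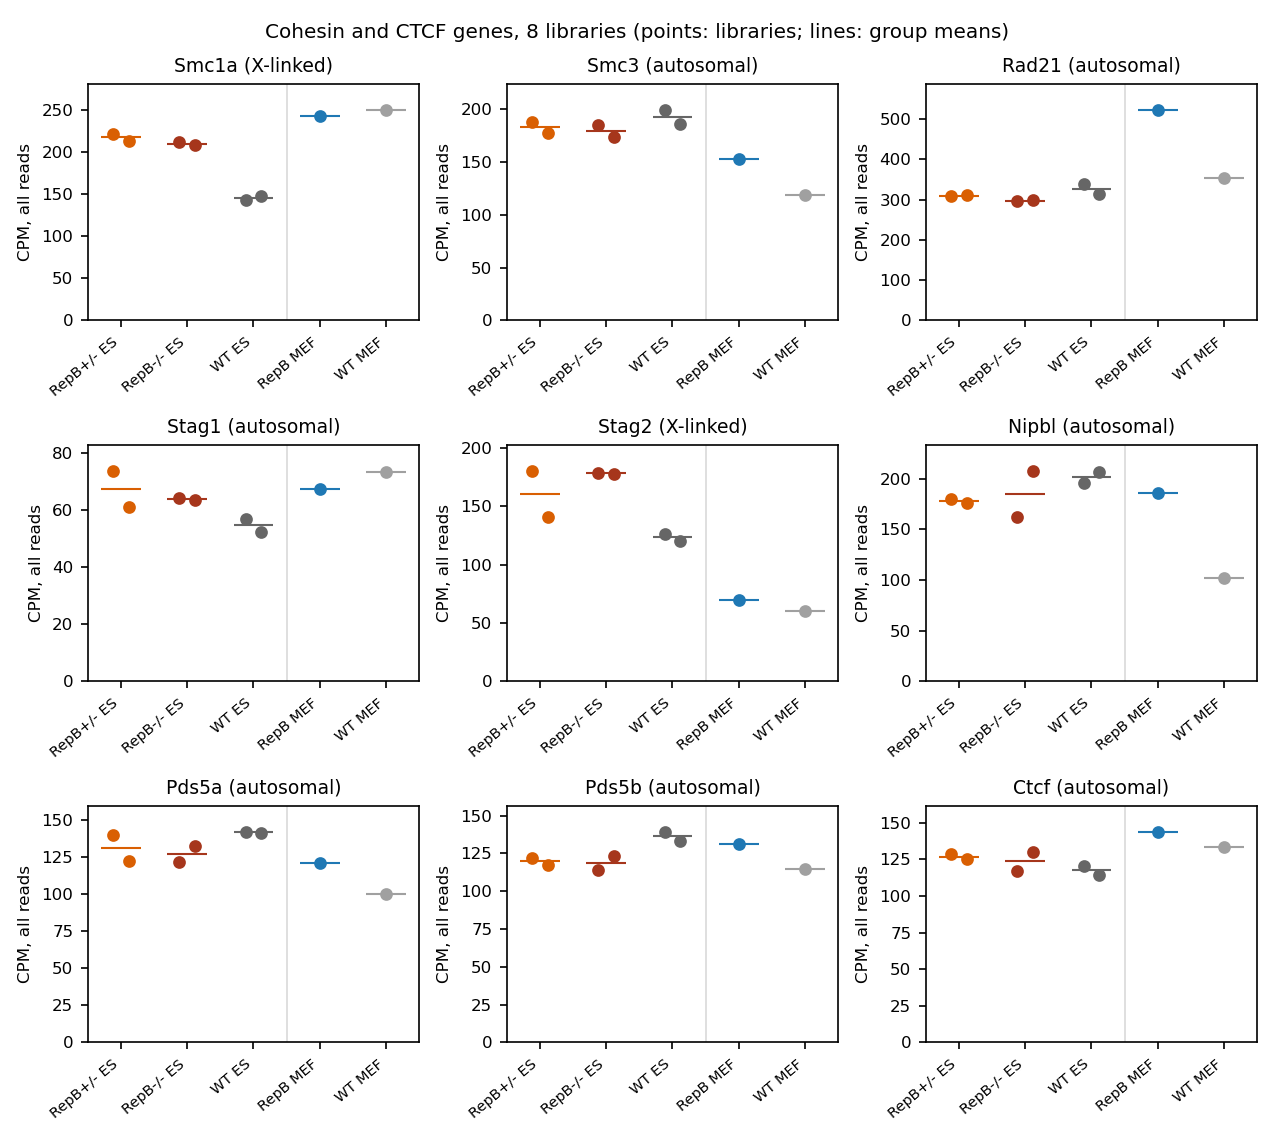
TMM-scaled CPM (y axis, from 0) of each of the 9 genes in the 8 libraries, by group (x axis), with points for libraries and lines for group means. Smc1a and Stag2 lie higher in the RepB ES libraries than in wild-type ES, and Nipbl and Rad21 lie higher in the RepB MEF library (185.9 and 523.2 CPM) than in wild-type MEF (102.0 and 354.3 CPM).

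**Figure D2:**
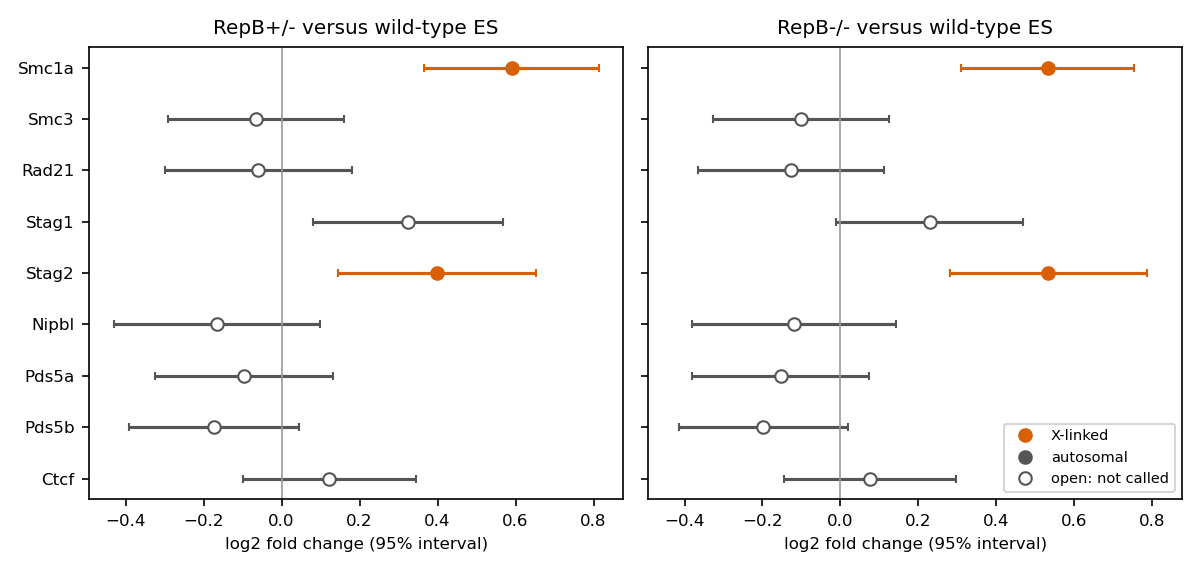
Log2 fold change with its 95% interval (x axis) of the 9 genes (y axis) in RepB+/- (left) and RepB-/- (right) against wild-type ES cells, 2 libraries a genotype. The filled points, Smc1a and Stag2, passed an adjusted p of 0.05, and the open points of the 7 autosomal genes did not.

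Between the mutants, 0 of 9 genes were called in RepB-/- against RepB+/- by edgeR, 0 of 9 had an unadjusted p under 0.05, and the DESeq2 test also called 0. Over all genes 0.0858% were called in that comparison. The intervals leave room for differences: the log2 fold change was -0.06 (95% interval -0.28 to 0.16) for Smc1a and 0.13 (-0.12 to 0.39) for Stag2.

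The partner ratios need no scaling between libraries. On the log2 scale of CPM per kilobase of exon (RPKM), the Smc1a to Smc3 ratio was 0.53 and 0.55 in RepB+/- and 0.49 and 0.55 in RepB-/-, against -0.19 and -0.04 in wild type. In each RepB library Smc1a stood above Smc3, and in both wild-type libraries just below it. The mean difference was 0.65 (1.57-fold) in RepB+/- and 0.63 (1.55-fold) in RepB-/-, each with p = 0.33 in the exact two-sided permutation test, which is the smallest p that 2 against 2 libraries allow (0.4 adjusted over 6 comparisons). The Stag2 to Stag1 ratio was 1.24 and 1.16 in RepB+/- and 1.42 and 1.44 in RepB-/-, against 1.10 and 1.16 in wild type. The lower RepB+/- value and the upper wild-type value were nearly equal, and the mean differences were 0.07 (1.05-fold) and 0.30 (1.23-fold), with the same p = 0.33 (exact permutation). Leaving out 1 library moved the RepB+/- difference of the Stag genes between 0.03, without RepB+/- replicate 1, and 0.11, without RepB+/- replicate 2; it was 0.04 without wild-type replicate 1.

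**Figure D3:**
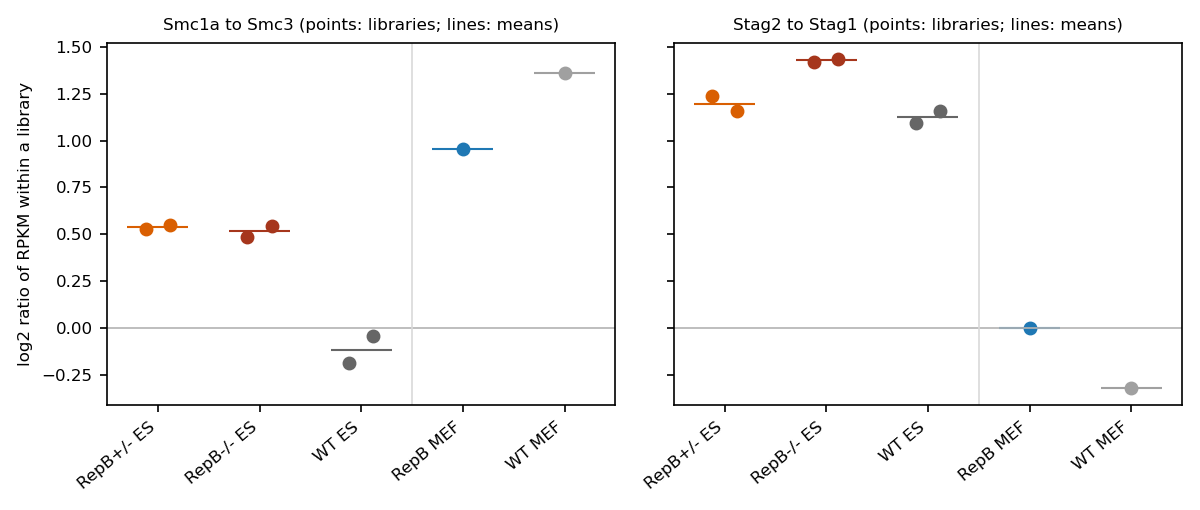
Log2 ratio of RPKM within each library (y axis) of Smc1a to Smc3 (left) and Stag2 to Stag1 (right), by group (x axis), with lines for group means. The 4 RepB ES libraries lie between 0.49 and 0.55 for Smc1a to Smc3, above both wild-type ES libraries, while the Stag ratios of RepB+/- and wild type nearly meet at 1.16.

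The levels per length put Rad21 first in each of the 5 groups, at 86.0 ± 0.88 RPKM in RepB+/-, 82.5 ± 0.64 RPKM in RepB-/- and 90.3 ± 4.95 RPKM in wild-type ES cells (SD, n = 2 each). Smc1a averaged 54.8 ± 1.55 RPKM in RepB+/- and 52.9 ± 0.69 RPKM in RepB-/-, which made it second of the 9, against 36.7 ± 0.80 RPKM in wild type, where it came next after Smc3 (39.8 ± 1.96 RPKM). Stag2 averaged 25.9 ± 4.46 RPKM in RepB+/- and 28.7 ± 0.095 RPKM in RepB-/-, against 19.9 ± 0.65 RPKM in wild type, and was sixth in all 3. Stag1 was last in all 3, at 11.2 ± 1.49 RPKM in RepB+/-, 10.7 ± 0.12 RPKM in RepB-/- and 9.11 ± 0.56 RPKM in wild type. The group means of the other genes lay between 16.2 and 39.8 RPKM. Neighbours whose ranges overlapped, and whose order is therefore not fixed, were Nipbl and Pds5b in all 3 ES genotypes and Ctcf and Pds5a in both RepB genotypes.

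The reads that can be given to an allele showed the Smc1a difference in the 129 reads. Smc1a had 300 reads of 129 and 380 of CAST in RepB+/- replicate 1 and 66 and 107 in replicate 2; it had 250 and 338 in RepB-/- replicate 1 and 224 and 276 in replicate 2. In wild type it had 20 reads of 129 and 273 of CAST in replicate 1 and 18 and 161 in replicate 2. The 129 share was thus 44.1% and 38.2% in RepB+/- and 42.5% and 44.8% in RepB-/-, against 6.83% and 10.1% in wild type, and the exact 95% intervals (Clopper-Pearson, counting error only) reached no lower than 30.9% in a RepB library and no higher than 15.4% in a wild-type library.

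The log2 ratio of 129 to CAST reads shifted by 3.02 (SE 0.35, adjusted p = 1.29e-15) in RepB+/- libraries, while the shift in RepB-/- libraries was 3.12 (SE 0.34, adjusted p = 6.39e-18), with edgeR over 11597 genes with a mean of at least 20 allelic reads. Of all these genes 2.10% shifted towards 129 in RepB+/- and 2.24% in RepB-/-, but of the X-linked ones 59.4% and 62.1% did. Without each ES library in turn the Smc1a shift stayed between 2.68 and 3.29 in RepB+/- and between 2.79 and 3.39 in RepB-/-, and past the threshold. Between RepB-/- and RepB+/- the shift was 0.10 (95% interval -0.43 to 0.64). In this ratio test the spread was in effect shared over all genes tested, so its p-values do not measure the spread of Smc1a alone.

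Fitted separately, the 129 reads of Smc1a rose in RepB+/- by 2.98 (SE 0.26, adjusted p = 1.89e-07) and those in RepB-/- by 2.93 (SE 0.26, adjusted p = 1.39e-07) on the log2 scale, where 5.42% and 4.96% of 12182 genes rose (edgeR). They averaged 9.12 ± 1.39 CPM in RepB+/- and 9.07 ± 1.06 CPM in RepB-/-, against 1.23 ± 0.33 CPM in wild type (SD, n = 2 each). The CAST reads averaged 13.0 ± 0.28 CPM in RepB+/- and 11.7 ± 0.60 CPM in RepB-/-, against 13.4 ± 0.34 CPM in wild type. Their log2 fold changes were -0.04 (95% interval -0.36 to 0.29, adjusted p = 0.930) and -0.19 (-0.51 to 0.12, adjusted p = 0.609), beside 1.35% and 1.49% of 5098 genes called in either direction. The 129 copy thus remained the less read of the pair in each RepB library.

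Beside other X-linked genes, the 129 share of Smc1a was above the median in each ES library. It was 44.1% beside a median of 35.8% and 38.2% beside 31.0% in RepB+/-, 42.5% beside 35.5% and 44.8% beside 34.1% in RepB-/-, and 6.83% beside 5.30% and 10.1% beside 6.57% in wild type. Of 376 X-linked genes without Xist, 82 to 127 had a share at or above that of Smc1a in a RepB library, and 118 and 153 in the wild-type libraries. Its shift of 3.02 stood beside a median X-linked shift of 2.86 in RepB+/-, and its 3.12 beside 2.91 in RepB-/-.

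**Figure D4:**
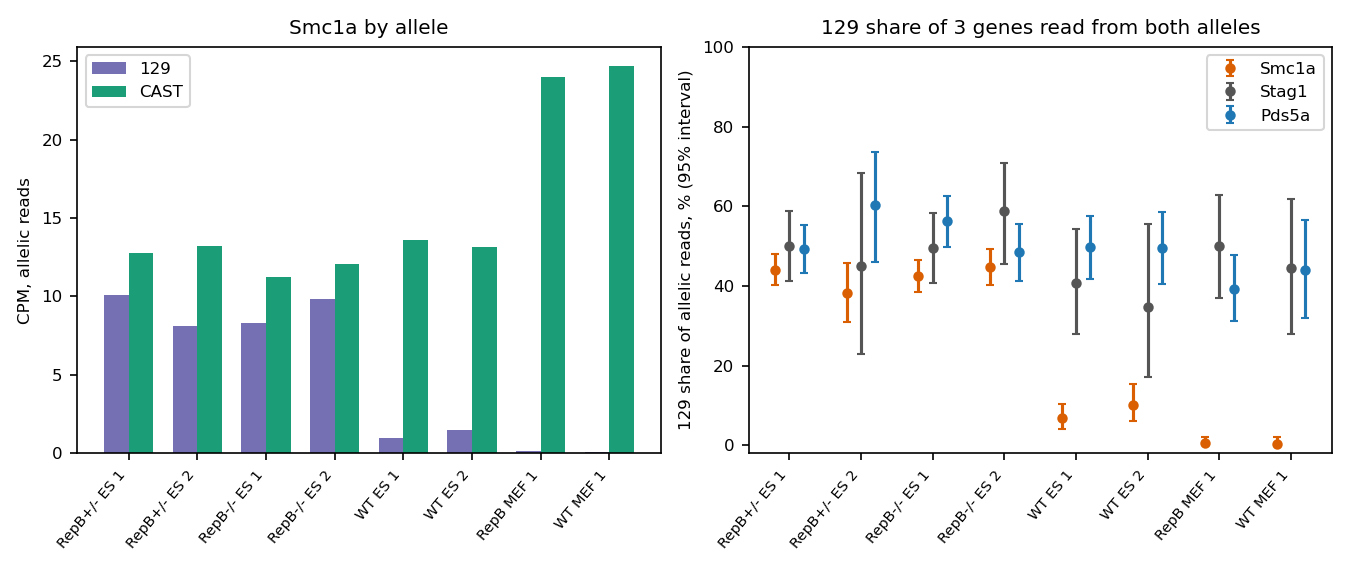
Left, CPM of Smc1a reads given to 129 and to CAST (y axis) in each library (x axis). Right, 129 share of allelic reads with its exact 95% interval for Smc1a and the autosomal genes Stag1 and Pds5a. The CAST bars of the 6 ES libraries lie between 11.2 and 13.6 CPM, while the 129 bars lie between 8.14 and 10.1 CPM in RepB libraries and at 0.997 and 1.47 CPM in wild-type libraries.

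For the 4 nearest genes around Smc1a with enough allelic reads, the 129 share differed widely. Hsd17b10, a mitochondrial dehydrogenase gene 14.5 kb before it, had a mean 129 share of 41.5% in RepB+/- and 44.4% in RepB-/-, against 9.89% in wild type, and rose in all reads by 0.54 and 0.56 (adjusted p = 0.00540 and 0.00425, edgeR). Huwe1, a ubiquitin ligase gene 213 kb before it, had 38.9% and 40.3% in the mutants, against 7.78% in wild type. Its all-read log2 fold changes of 0.35 and 0.37 were not called. The allele ratio shifted by 2.65 and 2.86 for Hsd17b10 and by 2.95 and 3.02 for Huwe1, all called (adjusted p of up to 1.59e-05, edgeR). Iqsec2, a regulator of Arf GTPases 128 kb after it, had 13.4% and 11.1% in the mutants, against 1.56% in wild type. Its ratio shifts of 2.90 and 2.61 were of similar size but not called (adjusted p = 0.115 and 0.196, edgeR), at a mean of 99.2 allelic reads per library. Kdm5c encodes a histone demethylase, often escapes X inactivation and lies 217 kb after Smc1a. It had 39.4% and 42.0% in the mutants, against 23.5% in wild type. Its ratio shifted by 1.10 and 1.23 (adjusted p = 5.00e-05 and 9.07e-07, edgeR), and its all-read log2 fold changes were -0.02 and -0.07.

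Stag2 carried too few allelic reads for the same question, with a mean of 7.5 per ES library. In 129 and CAST reads it had 5 and 14, and 2 and 3, in RepB+/-, and 3 and 1, and 4 and 9, in RepB-/-, against 1 and 1, and 0 and 2, in wild type. The pooled 129 shares of 29.2% in RepB+/- (95% interval 12.6% to 51.1%) and 41.2% in RepB-/- (18.4% to 67.1%) lay within the interval of 0.631% to 80.6% for wild type, so a shift of its alleles was not detectable at this depth. Xiap, an inhibitor of apoptosis gene that lies 81.6 kb before Stag2, had a 129 share of 45.9% in RepB+/- and 48.6% in RepB-/-, against 13.4% in wild type, and rose in all reads by 0.59 and 0.56 (adjusted p = 0.00349 and 0.00435, edgeR). The other genes read were farther away: Cul4b lay 3618 kb before Stag2, and Smarca1 and Ocrl lay 5660 and 5763 kb after it. The Smarca1 ratio shifted by 4.29 and 4.70 (adjusted p = 0.0319 and 0.00458), that of Ocrl by 2.56 and 2.70 (adjusted p = 9.04e-10 and 6.53e-12), and that of Cul4b by 0.99 and 0.86 without a call (edgeR).

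The autosomal partners fell into 2 kinds in these hybrid ES cells. Smc3, Nipbl, Pds5b and Ctcf were read almost wholly from 129, at 99.4% to 99.7% of the reads pooled over the 6 ES libraries, and their neighbours within 1 Mb had median 129 shares of 99.4% to 99.7%. Of 7 neighbours of Smc3, 1 had a 129 share between 20% and 80%. Rad21 was at 95.9%, with 15343 reads of 129 and 658 of CAST, beside a median of 99.1% for its 4 neighbours, and its CAST share was 3.60% to 4.82% in each ES library. Stag1, with 212 reads of 129 and 223 of CAST, and Pds5a, with 544 and 515, were read from both alleles. Their neighbours had median 129 shares of 49.6% and 50.8%, and 4 of 4 around Stag1 and 13 of 14 around Pds5a lay between 20% and 80%. Stag1 had a mean 129 share of 47.5% in RepB+/- and 54.2% in RepB-/-, against 37.6% in wild type, from 20 to 134 allelic reads per library. Its ratio shift was 0.61 (95% interval -0.70 to 1.91) in RepB+/- and 0.87 (-0.37 to 2.11) in RepB-/-. Pds5a had 54.8% and 52.4% in the mutants, against 49.6% in wild type, and shifts of 0.16 (-0.65 to 0.98) and 0.17 (-0.60 to 0.94). None of the 7 autosomal genes was called in the ratio test, in which 0.169% and 0.232% of autosomal genes shifted towards 129 (adjusted p of 1 for each of the 7, edgeR). Smc3, Nipbl, Pds5b and Ctcf had 3 to 13 CAST reads over the 6 ES libraries. The test could therefore hardly show a shift towards 129 for these genes. The same genes were read from both alleles in MEF, with 1 library a genotype. Their 129 shares there ran from 39.3% (Pds5b) to 47.6% (Ctcf) in wild type and from 43.8% (Pds5b) to 69.3% (Nipbl) in RepB.

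In the same fit, calls were also counted for other cohesin, condensin and CTCF partner genes. Of 14 cohesin regulators, 2 rose and 0 fell in RepB+/- (median log2 fold change 0.22) and 0 were called in RepB-/- (median 0.15) by edgeR, beside the 9.12% and 7.27% of all genes that rose. They were Sgol2a, a shugoshin that guards centromeric cohesion (0.37, adjusted p = 0.0417), and Chtf18, of a clamp loader complex used in establishing cohesion (0.39, adjusted p = 0.0497). Sgol2a had 71.0 and 58.6 CPM in RepB+/- and 60.4 and 63.8 CPM in RepB-/-, against 53.0 and 48.5 CPM in wild type. In RepB-/- the log2 fold changes of Sgol2a and Chtf18 were 0.29 and 0.26 (adjusted p = 0.111 and 0.199). Both RepB+/- calls were marginal: each was lost in the DESeq2 test (adjusted p = 0.0685 and 0.102), without either wild-type library, without RepB+/- replicate 1 and without either RepB-/- library, at adjusted p of up to 0.342 for Sgol2a and 0.356 for Chtf18, and that of Chtf18 also without RepB+/- replicate 2, with DESeq2 size factors (adjusted p = 0.0569) and with the compared genotypes alone in the fit (adjusted p = 0.0659). The Sgol2a value was 0.22 without RepB+/- replicate 1, and the Chtf18 value 0.25 without wild-type replicate 1.

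Of 11 genes of condensin and the other SMC complexes, 1 rose and 1 fell in RepB+/- (median 0.01), and 0 rose and 1 fell in RepB-/- (median 0.06). These counts are near the shares over all genes, of which 9.12% rose and 6.84% fell in RepB+/- and 5.49% fell in RepB-/-. Ncapg, a condensin I subunit, rose by 0.51 in RepB+/- (adjusted p = 0.0158, edgeR), a call that leaving out either wild-type library ended, as did leaving out RepB+/- replicate 1 (0.28, adjusted p = 0.238). In RepB-/- the log2 fold change of Ncapg was 0.38 (adjusted p = 0.0639, edgeR), without a call. Smc5, of the SMC5/6 complex in genome stability, had 134.3 and 118.2 CPM in RepB+/- and 126.1 and 137.0 CPM in RepB-/-, against 169.3 and 165.6 CPM in wild type. Smc5 fell by 0.39 in RepB+/- (adjusted p = 0.0223) and, in RepB-/-, by 0.35 (adjusted p = 0.0452). Leaving out any 1 of the wild-type or RepB-/- libraries ended the RepB-/- call (adjusted p of up to 0.255). For RepB+/-, leaving out RepB+/- replicate 2 or any 1 wild-type library did so (up to 0.125).

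Of 6 CTCF partners and architecture factors, 0 rose and 3 fell in RepB+/- (median -0.26), and 0 rose and 1 fell in RepB-/- (median -0.24), beside the 6.84% and 5.49% of all genes that fell. Yy1, a zinc-finger factor that can join enhancers to promoters, had 122.8 and 127.9 CPM in RepB+/- and 123.4 and 111.3 CPM in RepB-/-, against 172.2 and 166.5 CPM in wild type. Each RepB library lay below each wild-type library, a position that 29.4% of all genes took in RepB+/- and 28.4% in RepB-/-. In the edgeR fit Yy1 fell by 0.43 (SE 0.10, adjusted p = 0.0128) in RepB+/- cells, and RepB-/- cells showed a fall by 0.53 (SE 0.10, adjusted p = 0.00359). Leaving out any 1 wild-type library, or RepB+/- replicate 1, ended the first call of Yy1 (adjusted p of up to 0.0893), and leaving out RepB-/- replicate 2 the second (adjusted p = 0.0544). Zfp143, a promoter-binding factor linked to loops, fell by 0.53 in RepB+/- (adjusted p = 0.0138), and Adnp, a homeobox protein of the ChAHP complex, fell by 0.70 (adjusted p = 0.0370). In RepB-/- the log2 fold changes of Zfp143 and Adnp were -0.29 and -0.57 (adjusted p = 0.149 and 0.0852, edgeR), without a call. RepB+/- replicate 2 and wild-type replicate 2 were each needed for the Zfp143 call (adjusted p of up to 0.128 without one), and RepB+/- replicate 2 and each wild-type library for that of Adnp (up to 0.138).

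Of the 5 germline paralogs in the tables, 3 passed the low-count filter. Of these, 1 rose in each mutant, beside the 9.12% of all genes that rose in RepB+/- and 7.27% in RepB-/-. Smc1b, which takes the place of Smc1a in meiotic cohesin and is encoded on chromosome 15, had 17.0 and 16.8 CPM in RepB+/- and 12.0 and 10.3 CPM in RepB-/-, against 4.19 and 4.24 CPM in wild type. Each RepB library was above each wild-type library, as for 29.3% of all genes in RepB+/- and 31.1% in RepB-/-. The RepB-/- libraries lay between the other 2 groups. In RepB+/- the log2 fold change was 2.02 (SE 0.18, adjusted p = 1.11e-05), and RepB-/- gave 1.41 (SE 0.18, adjusted p = 0.000134) by edgeR, and both calls held without each library in turn (adjusted p of up to 0.000344 and 0.00388). The 5 pluripotency markers rose in the same libraries, and their part in this difference was not tested. In MEF, Smc1b had 0 reads in RepB and 1 read in wild type.

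Across the 6 ES libraries, the genes whose log2 CPM followed that of Smc1a most closely among 11388 screened were Cldn2 (Pearson's r = 0.996), Athl1 (0.996) and Rundc3a (0.995). Of these only Cldn2, a claudin of tight junctions, is X-linked; it had 7.68 and 6.78 CPM in RepB+/- and 6.29 and 5.92 CPM in RepB-/-, against 2.14 and 2.04 CPM in wild type. For Stag2 they were Mis12, of the kinetochore (0.993), Mapk12, a p38 kinase gene (0.993), and Zfp14 (0.991), all autosomal. Smc1a and Stag2 followed each other less closely (r = 0.863). These values describe 6 libraries that share 3 genotypes and their depths, with the highest values picked from all genes screened.

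In MEF, with 1 library a genotype and thus no test, the order was different: the largest ratios belonged to 2 genes of chromosome 15, Nipbl and Rad21, and Smc1a was close to even. Nipbl had 3214 reads in RepB and 1050 in wild type, or 185.9 and 102.0 CPM, a log2 ratio of 0.87 (1.82-fold; exact 95% interval for counting error 0.77 to 0.97). Rad21 had 9043 reads in RepB and 3649 in wild type, a log2 ratio of 0.56 (0.51 to 0.62). These were the 2 of 9 genes with a log2 ratio of at least 0.5, which 15.5% of 11672 genes reached; 0 of 9 were at or below -0.5, where 15.1% of genes lay.

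Chromosome 15 as a whole was higher in RepB MEF, with a median log2 ratio of 0.40 over 490 genes, the highest of the autosomes, beside 0.03 over all genes. Chromosomes 3 and 10 were shifted nearly as much, with medians of 0.39 and 0.34 and median 129 shares of 60.5% and 65.8% in RepB, against 50.7% and 50.8% in wild type. The median 129 share of chromosome 15 was 65.9% in RepB and 52.4% in wild type, and the member genes showed the same: 69.3% of Nipbl allelic reads in RepB and 47.5% in wild type were 129, and 64.7% and 53.7% of Rad21 reads. Among those 490 genes, 69 had a ratio at or above that of Nipbl and 166 at or above that of Rad21. In ES cells the chromosome 15 median was 0.01 in RepB+/- and 0.00 in RepB-/-. With 1 library a genotype, the genotype and whatever else sets these MEF libraries apart cannot be told apart.

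The remaining MEF ratios were smaller. Smc3, on chromosome 19, had a log2 ratio of 0.37 (0.27 to 0.47), above the chromosome 19 median of -0.11, and 59 of 417 genes there were at or above it. Pds5a had 0.27 and Pds5b 0.19, beside a median of 0.18 for their chromosome 5, and Ctcf had 0.10. Stag2 had 0.20 (0.06 to 0.34) and Stag1 -0.12 (-0.26 to 0.01), so the log2 Stag2 to Stag1 ratio of RPKM was -0.00 in RepB and -0.32 in wild type. Smc1a had 242.6 CPM in RepB and 250.2 CPM in wild type, a log2 ratio of -0.04 (-0.12 to 0.03) that became 0.08 when libraries were scaled by total counts, a scaling that moved the median of all genes by 0.13. The log2 Smc1a to Smc3 ratio of RPKM was 0.95 in RepB and 1.36 in wild type.

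Smc1a was read almost wholly from CAST in both MEF libraries. It had 3 reads of 129 and 415 of CAST in RepB, a 129 share of 0.718% (exact 95% interval 0.148% to 2.08%), and 1 and 254 in wild type, a share of 0.392% (0.00993% to 2.17%). The intervals overlap almost wholly, and the median X-linked shares were 0.448% in RepB and 0.204% in wild type. Its CAST reads stood at 24.0 CPM in RepB MEF and 24.7 CPM in wild-type MEF. Stag2 had 0 reads of 129 and 3 of CAST in RepB MEF, and no allelic reads in wild-type MEF. The difference of the Smc1a response between ES cells and MEF was not tested.

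**Figure D5:**
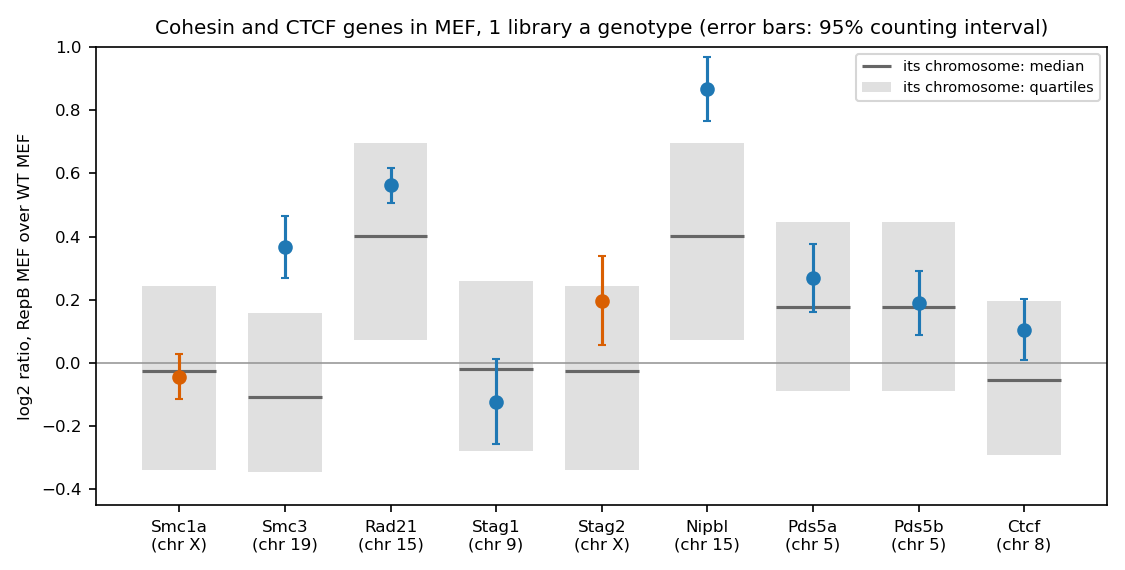
Log2 ratio of RepB MEF over wild-type MEF (y axis) for the 9 genes (x axis, with their chromosomes), with exact 95% intervals for counting error, over the quartiles (bars) and median (line) of all genes of the same chromosome. Nipbl (0.87) lies above the upper quartile of chromosome 15 and Rad21 (0.56) within the quartiles, while Smc3 (0.37) lies above those of chromosome 19.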

How the data were processed

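The series has 50 samples, of which the 8 RNA-seq libraries were used here. Their 3 deposited tables give the authors' whole-number counts per gene and library for all reads and for reads given to each allele, headed mus and cas and read here as 129 and CAST after the labelled strain background. Per the submitters' processing notes, Novoalign, TopHat, SAMtools, bedtools, cutadapt and featureCounts were among the tools and mm9 was the build. Strand handling is not given in the sources used here. Members, lists and tests were chosen with earlier results of these data known.

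The 6 ES libraries were fitted together in edgeR 4.0.16 (R 4.3.3): filterByExpr (minimum count 10, minimum total 15), TMM factors, a quasi-likelihood F-test of genotype, and Benjamini-Hochberg adjustment over all genes tested. Allele ratios were tested by the interaction of allele and genotype, blocked on library, for genes with a mean of at least 20 allelic reads, and single-allele levels for genes with a mean of at least 10 reads of that allele. The fits were tested on simulated counts. CPM and RPKM use TMM factors over all 8 libraries and the exon lengths in the tables. MEF ratios used a prior count of 2 and genes of at least 1 CPM. Alternatives were other size factors, DESeq2 1.42.0, other minimums, a replicate block and leaving out each library. All 9 members are named, with the called genes of each list (at most 4, by adjusted p) in each comparison with wild type (or the 2 with the lowest p where none was called), the 3 genes most like Smc1a and Stag2 (mean of at least 5 CPM) and 2 neighbours on each side. Intervals of shares and MEF ratios cover counting error only, since reads carry no molecular identifiers in the labels.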

Additional observations from a re-analysis of the deposited data

Results flagged for a closer look

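Some autosomal members had a log2 ratio above 0 in the single pair of MEF libraries and lay below wild type in every ES library of a RepB genotype. In RepB+/- ES cells these were Rad21 (log2 fold change -0.059, against a MEF log2 ratio of 0.56), Nipbl (-0.17, against 0.87), Pds5a (-0.10, against 0.27) and Pds5b (-0.17, against 0.19). In RepB-/- ES cells they were Smc3 (-0.10, against a MEF log2 ratio of 0.37), Rad21 (-0.13, against 0.56), Pds5a (-0.15, against 0.27) and Pds5b (-0.20, against 0.19). Of all genes, 29.4% lay below wild type in this way in RepB+/- and 28.4% in RepB-/-. With libraries scaled by total counts, Nipbl in RepB+/- and Pds5b in RepB-/- still lay below wild type, and the others overlapped it. None of these ES fold changes passed an adjusted p of 0.05 (edgeR), MEF had 1 library a genotype, and the difference between ES cells and MEF was not tested. The median MEF log2 ratio was 0.40 for chromosome 15, which holds Rad21 and Nipbl. It was 0.18 for chromosome 5 (Pds5a and Pds5b) and -0.11 for chromosome 19 (Smc3).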

How the results depend on the processing

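Under other size factors, TMM from autosomal genes, the DESeq2 test, no low-count filter and fits of the genotypes compared alone, 2 of 9 genes were called in each comparison with wild type and 0 between the mutants. Leaving out 1 library gave 1 to 3 genes called in RepB+/- and 0 to 2 in RepB-/-. In RepB-/- the log2 fold change of Nipbl ran from -0.31 to 0.053 and that of Ctcf from -0.0020 to 0.15 over these fits, so their sign is not fixed. The labels do not state whether replicate numbers pair the libraries. The correlation of deviations between same-numbered libraries was weak but positive, at 0.18, 0.09 and 0.25 for the 3 pairs of genotypes. With the replicate block, genes that rose and fell went to 1944 and 1675 in RepB+/- (1382 and 1036 without it) and to 1667 and 1493 in RepB-/- (1101 and 832), 31 and 49 were called between the mutants (3 and 10), and 3 members were called in RepB+/- (Stag1 added, adjusted p = 0.0238), 2 in RepB-/- and 0 between the mutants. The block also called Sgol2a in RepB-/- (0.30, adjusted p = 0.0437). The Smc1a ratio shift was 3.03 and 3.12 with the block. The Stag2 ratio and single-allele fits could not be fitted under the minimum; with no minimum the shifts were 0.22 (SE 1.75) and 1.04 (SE 2.46). With libraries scaled by total counts, Rad21 stood at 91.2 RPKM in RepB+/- and 90.3 RPKM in wild type, and Smc3 at 40.1 and 39.8 RPKM, so that both orders turned.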
